A study of Danio rerio with 12 samples.

Results

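Chromatin accessibility in control zebrafish embryos was compared between 80% epiboly, late in gastrulation, and the stage of 12 somites, during segmentation. The comparison used 4 of the 12 libraries of the series, namely the 2 libraries per stage that received the solvent dimethyl sulfoxide (DMSO) at a dose of 0 µM retinoic acid. All embryos were wild-type Danio rerio, analysed whole after removal of yolk and egg envelope. DMSO was added at 30% epiboly for the earlier collection and at 80% epiboly for the later one, so the start of solvent exposure also differs between the stages. The other 8 libraries were used for comparison. They were embryos given 0.1 µM all-trans retinoic acid (atRA) over the same intervals, with 2 libraries per stage, and embryos of 24 hours post fertilization (hpf) after DMSO or atRA added at 80% epiboly, again 2 libraries each. A whole embryo mixes many cell types, so a site open in fewer cells and a site less open in each cell cannot be told apart.

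In ATAC-seq, the sequencing assay for chromatin that a transposase can reach, the enzyme cuts where DNA is not covered by nucleosomes, and the cuts pile up as peaks. Such sites mark promoters, enhancers and other regulatory DNA. Promoters of widely used genes tend to be accessible in most tissues, while enhancers tend to open and close as cells take on their fates. Between gastrulation and segmentation the germ layers of the zebrafish give rise to somites, neural tube, notochord, neural crest and the precursors of blood and heart.

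The peaks of each library on chromosomes 1 to 25 were ranked by −log10 p-value, then by fold enrichment, then by position. The best 50000 peaks of a library formed its top set and the best 100000 its wide set. Merging the top sets of the 4 DMSO libraries gave 81403 regions, whose positions are given from base 1 on the GRCz10 build named in the submitters' processing notes. A region was called opened if it overlapped the top set of both 12 somites libraries and the wide set of neither 80% epiboly library, and closed in the reverse case. The limits fell at different strengths in the 4 lists. The peak at rank 50000 had a −log10 p-value of 30.3 in 80% epiboly replicate 1 (the next peak 30.3), 30.8 in replicate 2 (the next 30.8), 8.93 in 12 somites replicate 1 (the next 8.93) and 14.0 in replicate 2 (the next 14.0). At rank 100000 the values were 18.7, 18.8, 6.06 and 8.39 in the same order.

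The 4 libraries differed in depth along with stage. The 80% epiboly lists held 433132 and 439137 peaks and the 12 somites lists 156361 and 235850. The background pileup, the most frequent number of fragments expected at a site with no enrichment, was 3.18 and 3.28 at 80% epiboly against 0.69 and 1.15 at 12 somites. Depth and stage therefore cannot be told apart within the 4 libraries. The atRA libraries break this order, with backgrounds of 2.47 and 0.87 at 80% epiboly and 1.60 and 1.44 at 12 somites, and results are given in them as well. With 2 libraries against 2, an exact two-sided permutation test cannot give p under 0.33. Nothing in the labels says that replicates came from separate clutches, so p-values refer to these libraries only. A p-value at its smallest possible value means only that no other split of the libraries gave a larger difference, whatever their spread.

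Of the 81403 regions, 2711 (3.33%) were opened and 4456 (5.47%) were closed between 80% epiboly and 12 somites. A larger number, 24999 regions or 30.7%, lay in the top set of all 4 libraries. Before the wide set was consulted, 7830 regions lay in the top sets of both 12 somites libraries and of neither 80% epiboly library, and 10637 in the reverse pattern, so most regions with a stage-specific place among the best peaks were still among the best 100000 of at least 1 library of the other stage. The region counts rest on the agreement of 2 libraries. Without 12 somites replicate 1, opened regions numbered 6010, and without replicate 2 they numbered 8193. Closed regions numbered 8529 without 12 somites replicate 2. Opened and closed regions were then close in number, with 6133 closed regions without 12 somites replicate 1. Without either 80% epiboly library both counts stayed within 1.5 times. The closed count was 9527 when an overlap had to cover 50% of both intervals, and 148799 when all peaks with q up to 0.01 were used without ranks, where the opened count was 3397.

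The excess of closed over opened regions did not hold in the embryos given atRA. There the same rule gave 2616 opened (3.25%) and 2081 closed regions (2.58%) of 80564. Whether the balance differs between the arms was not tested. In atRA the depth gap between the stages was not in 1 direction. In DMSO the mean background was 3.23 ± 0.0707 (SD, n = 2) at 80% epiboly and 0.920 ± 0.325 (SD, n = 2) at 12 somites. The part of depth in the balance was not tested.

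Top sets of the same stage overlapped more than those of different stages. The 80% epiboly pair shared 86.4% of its peaks and the 12 somites pair 72.3%, while the 4 pairs across stages shared 60.1% to 64.7%. The gap was 16.9 percentage points, and its one-sided exact permutation p of 0.33 is the lowest that 3 splits allow. Without 80% epiboly replicate 1 or 2 it was 9.76 or 9.94 points, and without 12 somites replicate 2 it was 26.1 points. Library 12 somites replicate 1, the shallowest of the 4, was the less similar member in each cross-stage comparison, with 60.1% and 60.3% against 64.5% and 64.7% for replicate 2.

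The calls were then followed in the 8 libraries that had not defined them. Opened regions lay in the top set for 66.8% and 67.8% in the 12 somites atRA libraries, and for 12.5% and 10.7% in the 80% epiboly atRA libraries. Of all regions, 53.8% and 54.5%, and 55.4% and 53.8%, lay in those top sets. Opened regions thus stood above the share of all regions at 12 somites and below it at 80% epiboly, with no overlap between stages. They had been chosen for the top sets of both 12 somites DMSO libraries, which all regions had not. Regions in the top set of all 4 DMSO libraries stood higher, at 93.6% and 94.2% in 12 somites atRA. In 80% epiboly atRA these shared regions stood at 93.7% and 93.2%. The stage difference for opened regions was 55.7 percentage points (exact permutation, two-sided p = 0.33, the smallest possible for 2 against 2). Without 12 somites DMSO replicate 2 among the defining libraries it was 28.0 points.

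Closed regions went the other way in the same libraries. They lay in the top set for 44.2% and 44.9% in the 80% epiboly atRA libraries and for 4.29% in each 12 somites atRA library, a difference of -40.2 points (exact permutation, two-sided p = 0.33). With every peak of q up to 0.01 in place of the top sets, it was -13.7 points. In that setting the split by stage no longer gave the largest difference among the splits of these libraries. Set against all regions, closed regions were below the general share at both stages and far below it at 12 somites. The 80% epiboly atRA libraries, with backgrounds of 2.47 and 0.87, had similar top-set shares but differed in the presence of any peak, which was 94.9% and 59.2% for opened regions and 98.1% and 86.2% for all regions. The part of depth in these differences was not tested.

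At 24 hpf opened regions were at or below the general share, and closed regions far below it. Opened regions lay in the top set for 48.8% and 49.1% in the DMSO libraries of 24 hpf and for 46.9% and 45.7% in the atRA libraries. Of all regions, 49.1% and 50.3% did so in DMSO and 48.9% and 48.0% in atRA. Closed regions did so for 8.53% and 9.54% in DMSO and 9.54% and 10.01% in atRA. The 6 libraries of later stages averaged 54.2% ± 10.2 (SD, n = 6) for opened regions against 11.6% ± 1.33 (SD, n = 2) in 80% epiboly atRA. That is 42.6 points (exact permutation over 28 splits, two-sided p = 0.0357, the smallest possible), with all 6 libraries higher. Here and for closed regions, the 6 pool 12 somites atRA with 24 hpf DMSO and atRA. The test over 28 splits is therefore not one of 12 somites alone. It takes each library as a separate unit, although libraries of the same stage and treatment lay close together, so its p does not allow for this grouping. The SD over the 6 includes the gap between 12 somites and 24 hpf. All regions averaged 50.8% ± 2.73 (SD, n = 6) and 54.6% ± 1.11 (SD, n = 2) in the same libraries, a difference of -3.88 points (exact permutation, two-sided p = 0.143). Opened regions were above the share of all regions in the 12 somites atRA pair and in none of the 4 libraries of 24 hpf, and were below it in both 80% epiboly atRA libraries.

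For closed regions the averages were 7.70% ± 2.69 (SD, n = 6) and 44.5% ± 0.492 (SD, n = 2), a difference of -36.8 points with all 6 later libraries lower (exact permutation over 28 splits, two-sided p = 0.0357, the smallest possible). When every peak with q up to 0.01 took the place of the top sets, neither difference passed 0.05 (20.3 points, exact permutation p = 0.214, and -18.6 points, p = 0.143). Nor did the opened difference pass when absence meant no peak at all (20.3 points, exact permutation p = 0.214). Without 12 somites DMSO replicate 2 among the defining libraries, the opened difference was 22.9 points (exact permutation p = 0.0357). Without either 80% epiboly atRA library, the smallest exact p is 0.143.

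**Figure D1:**
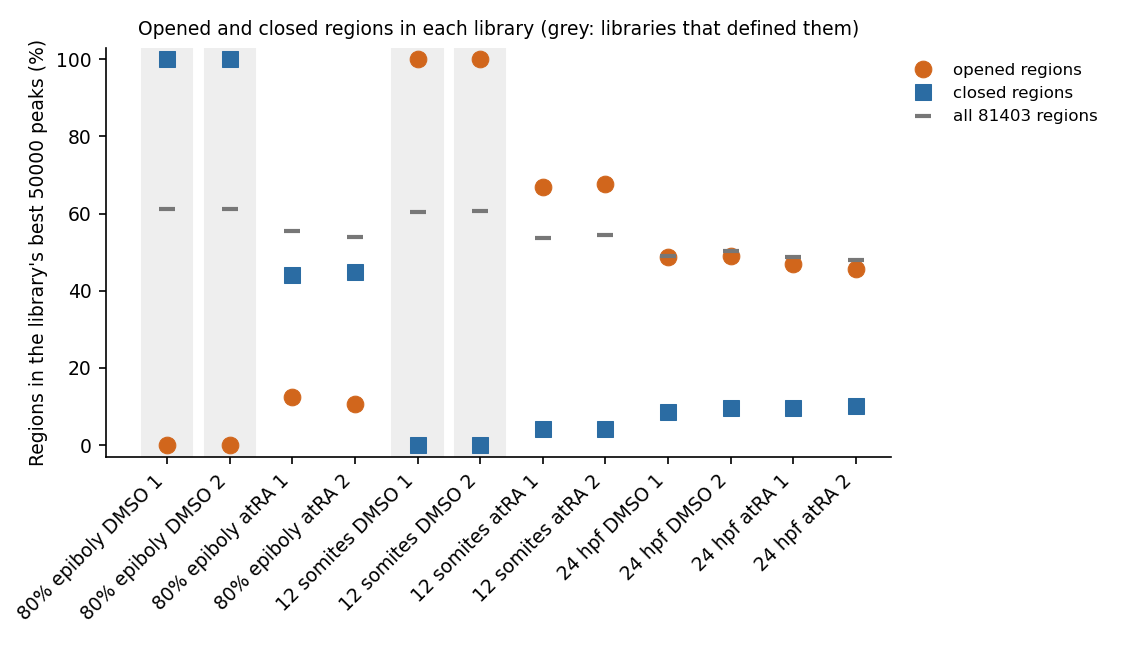
Percentage of the opened, closed and all regions (vertical axis) that overlapped the best 50000 peaks of each of the 12 libraries (horizontal axis), with grey bands for the 4 DMSO libraries whose values are fixed by the rule. Opened regions sit at 66.8% and 67.8% in the 12 somites atRA libraries against 12.5% and 10.7% at 80% epiboly, and closed regions at 4.29% against 44.2% and 44.9%.

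Part of the regions followed the rule in both arms. Of the opened regions, 537 (0.66% of all regions) were also in the top set of both 12 somites atRA libraries and in the wide set of neither 80% epiboly atRA library, and 676 closed regions (0.83%) met the reverse condition. This is 19.8% of the opened and 15.2% of the closed regions. For these regions the rule thus used 4 libraries of each stage.

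Agreement with the atRA arm rose with strength for closed but not for opened regions. Among closed regions that ranked within the best 10000 in both 80% epiboly libraries, 56 of 107 (52.3%) were closed in both arms. Among those whose worse rank lay beyond 40000, the share was 7.41% (134 of 1808). For opened regions, 7 of 42 (16.7%) within the best 10000 and 203 of 1161 (17.5%) beyond 40000 were opened in both arms. In between, the shares were 20.7% (ranks 10001 to 20000), 23.3% (20001 to 30000) and 20.9% (30001 to 40000). The ranks that sort the regions here also made the calls. Agreement also needs a place in the top set of both atRA libraries of the same stage and in the wide set of neither of the other stage. The part of closeness to these limits was not tested, so these shares are a description.

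The 24 hpf libraries took no part in this choice. Of the 537 regions opened in both arms, 290 (54.0%) were in the top set of both 24 hpf DMSO libraries and 57 (10.6%) in the wide set of neither. For all 2711 opened regions the values were 39.1% and 17.1%, and for all 81403 regions 42.5% and 20.6%. Of the 676 regions closed in both arms, 31 (4.59%) were in the top set of both 24 hpf DMSO libraries and 482 (71.3%) in the wide set of neither. For all closed regions these were 5.23% and 62.5%, and for the regions in the top set of all 4 control libraries 81.8% and 1.68%.

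Opened and closed regions lay mostly in the weaker part of the top sets. The worse of the 2 ranks of an opened region had a median of 38023, and 42 of 2711 (1.55%) had both ranks within the best 10000. For closed regions the median was 37214.5, and 107 of 4456 (2.40%) were within the best 10000. In 12 somites replicates 1 and 2, opened regions made up 1.21% and 0.91% of the 10000 best peaks, and 6.20% and 8.19% of the peaks ranked 40001 to 50000. In 80% epiboly replicates 1 and 2, closed regions took 1.68% and 1.87% of the 10000 best peaks, and 13.8% and 13.1% of those ranked 30001 to 40000. The strongest peaks of either stage were thus the least often stage-specific by this rule. The calls use these ranks, and worse ranks of other regions were not taken, so this is a description.

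Strength at the summit is given as the pileup of fragments over the background of the same library. Opened regions had medians of 20.3 and 20.0 times background in 12 somites replicates 1 and 2, where all regions with a peak had 18.8 and 18.3. All regions include some outside these top sets, which opened regions by the rule do not. Regions in the top set of all 4 libraries had 27.5 and 28.7 there. At 80% epiboly the opened regions with a peak had medians of 7.86 and 7.62 times background, against 16.0 and 15.9 for all regions. Closed regions had medians of 17.6 and 17.4 at 80% epiboly, against 23.6 and 23.2 for regions in the top set of all 4 libraries. In each 12 somites library the median of closed regions was 8.70, at median pileups of 6 and 10. It covers only the 23.2% and 61.2% of closed regions with a peak in replicates 1 and 2. These levels were used to make the calls and are a description. Summit pileups reached at most 151 and 153 in the 80% epiboly lists and 111 and 137 in the 12 somites lists, although the backgrounds differed several-fold, so ratios of the strongest peaks are not comparable between lists of unlike depth.

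Most opened regions had a peak at the earlier stage too, though a weaker one. Nearly all regions had a peak there, weak or strong. A peak was present for 92.4% and 93.2% of opened regions in the 80% epiboly DMSO lists, against 98.5% and 98.6% of all regions. At 80% epiboly, 2438 of 2711 opened regions (89.9%) had such a lower-ranked peak in both DMSO lists, and 116 (4.28%) had none in either. The median pileup of opened regions with a peak was 25 in each of these lists, against 14 and 23 in 12 somites replicates 1 and 2. A lower rank here thus did not mean fewer fragments at the summit. At 12 somites, 808 of 4456 closed regions (18.1%) had a lower-ranked peak in both lists and 1502 (33.7%) had none in either. Closed regions had a peak for 23.2% in 12 somites replicate 1, the shallowest list, and for 61.2% in replicate 2, against 85.6% and 93.9% of all regions. A missing peak means only that the site did not pass the caller's threshold at that depth. In the deeper 12 somites atRA lists, 70.9% and 65.3% of closed regions had a peak, against 95.1% and 93.9% of all regions.

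Opened regions were narrower than closed ones. Their width had a median of 304 bp (25th to 75th percentile 255 to 369), and 122 (4.50%) were 500 bp or wider. Closed regions had a median of 377 bp (312 to 472), and 909 (20.4%) were 500 bp or wider, against 18.6% of all regions. Regions in the top set of all 4 libraries were wider still, with a median of 433 bp, against 342 bp over all regions. A region spans its merged top-set peaks, which come from all 4 lists for these shared regions. For opened and closed regions they come from the lists of 1 stage. Shared regions also ranked better, with median ranks of 15023 and 15067 at 80% epiboly against 32598.5 and 32268 for closed regions. The widths are therefore not those of like peaks. No opened region reached 1 kb, while 13 closed regions (0.29%) and 427 of those shared by all 4 libraries (1.71%) did, against 0.71% of all regions. Few opened regions could be so wide, since the 12 somites top sets held only 1 and 12 peaks of 1 kb or more. The 80% epiboly top sets held 408 and 355. In total, opened regions covered 0.869 Mb and closed regions 1.83 Mb of the 30.9 Mb under all regions.

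Peak width also differed between the lists as wholes. The median width over the top set was 377 and 375 bp at 80% epiboly and 244 and 292 bp at 12 somites. The stages averaged 376 ± 1.41 bp and 268 ± 33.9 bp (SD, n = 2 each), a difference of -108 bp (exact permutation, two-sided p = 0.33, the smallest possible). Within 12 somites, the deeper library had the wider peaks. In the atRA libraries the medians were 357 and 299 bp at 80% epiboly and 317 and 310 bp at 12 somites, so the stages overlapped there. The part of depth in the width difference was not tested.

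Peaks of like rank in 1 library are therefore the closer comparison. Among the 10000 best peaks, those in opened regions had median widths of 295 and 335 bp in 12 somites replicates 1 and 2, against 307 and 349 bp for the other peaks. Among ranks 40001 to 50000 they were wider than the others, with 217 and 268 bp against 199 and 249 bp. Peaks in closed regions were 425 and 422 bp wide against 446 and 441 bp for others in the first bin at 80% epiboly, and 331 and 329 bp against 327 and 324 bp in the last. Within a library, stage-specific peaks thus differed in width from others of like rank by far less than the widths differed between the DMSO stages.

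**Figure D2:**
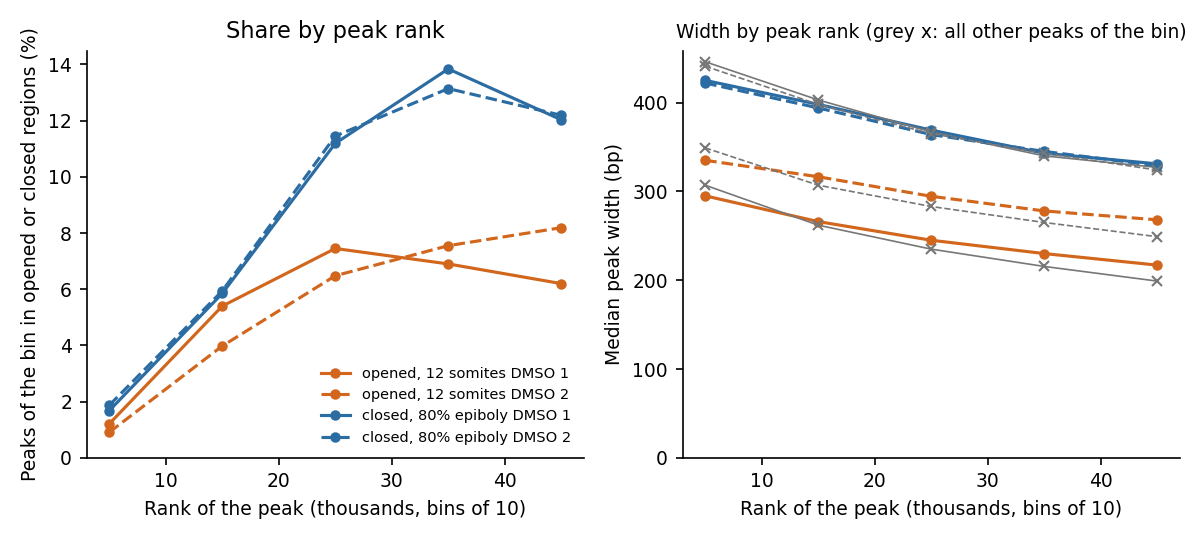
Left, percentage of the peaks in each bin of 10000 ranks that lay in opened regions (12 somites libraries) or closed regions (80% epiboly libraries). Right, median width in bp of those peaks (circles) and of the other peaks of the same bin and library (grey crosses), where the lines of 1 library run close together while the stages are apart.

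Opened and closed regions were found on all 25 chromosomes. The opened share of a chromosome's regions ran from 2.51% on chromosome 7 to 4.21% on chromosome 18, and the closed share from 4.03% on chromosome 1 to 7.21% on chromosome 4. Chromosome 18 had 135 opened and 137 closed regions, or 1.01 closed per opened. Chromosome 7 had 119 opened and 323 closed, or 2.71 closed per opened. Closed regions outnumbered opened ones on every chromosome.

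The long arm of zebrafish chromosome 4 is known for its repeats and late replication. Beyond 30 Mb on chromosome 4, 38 of 622 regions (6.11%) were opened and 52 (8.36%) closed. Up to 30 Mb, 33 of 1804 (1.83%) were opened and 123 (6.82%) closed. Both shares were thus higher on the distal part, which held few regions for its length.

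Opened regions were found more often near chromosome ends than closed ones. Within 2 Mb of a chromosome's first base or of the end of its last peak, 363 of 8234 regions (4.41%) were opened and 322 (3.91%) closed. Farther in, 3.21% were opened and 5.65% closed. Put the other way, 13.4% of opened, 7.23% of closed and 10.1% of all regions lay within 2 Mb of an end. Among regions with the same call in both arms the shares were 11.2% of opened and 10.1% of closed, so this contrast was smaller there.

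**Figure D3:**
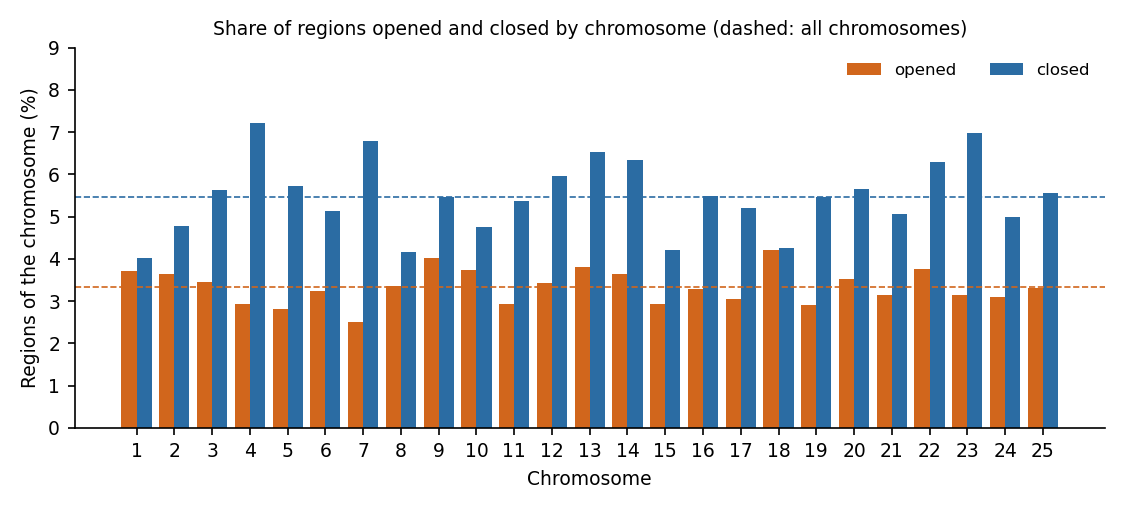
Percentage of the regions of each chromosome (horizontal axis) that were opened or closed, with dashed lines at the values over all chromosomes, 3.33% and 5.47%. Closed regions exceed opened ones on each chromosome, by least on chromosome 18 and by a wide margin on chromosomes 4, 7 and 23.

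Regions of like direction lay near each other. Another opened region lay within 50 kb of 30.7% of opened regions, of 13.8% of closed regions and of 19.4% of all regions. Another closed region lay within 50 kb of 39.7% of closed regions, of 21.3% of opened regions and of 30.5% of all. The density of regions of any kind was similar, with a mean of 7.10 neighbours within 50 kb of an opened region, 7.48 of a closed one and 7.40 of any region. The nearest region shared by all 4 libraries was 19451 bp from an opened region at the median, 15922.5 bp from a closed one and 15852 bp from any region. Neighbouring regions share libraries and sequence context, so these shares are a description.

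**Figure D4:**
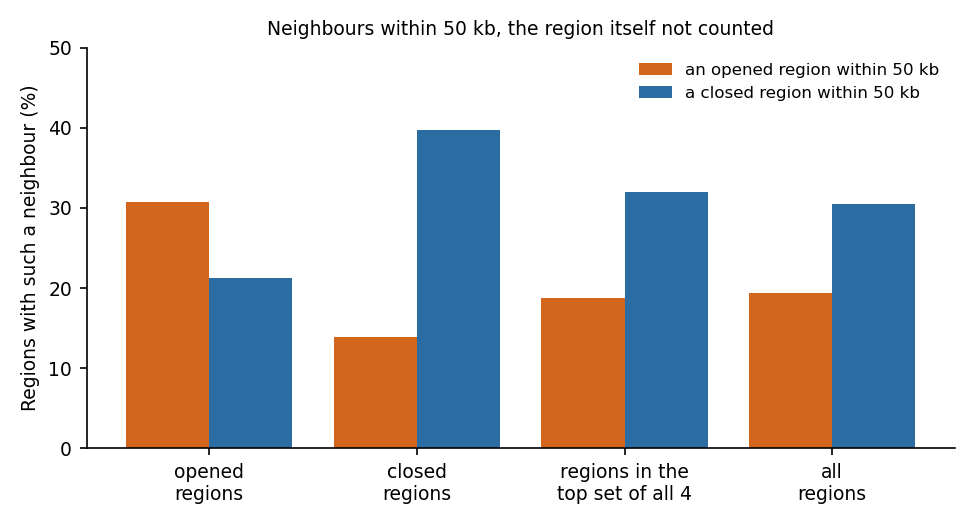
Percentage of opened, closed, shared and all regions (horizontal axis) with another opened or another closed region within 50 kb. Opened regions have the highest share with an opened neighbour (30.7%) and closed regions the highest share with a closed neighbour (39.7%).

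Windows along the genome were then counted. In windows of 100 kb, 2266 of 12933 windows with a region held an opened and 3449 a closed region, and 483 held both. A closed region was present in 21.3% of windows with an opened one and in 26.7% of all windows. An opened region was present in 14.0% of windows with a closed one and in 17.5% of all windows. Windows with 3 or more opened regions numbered 66, and those with 3 or more closed regions 178. The window with the most opened regions was chr3:60100001-60200000, with 5 of its 7 regions. The window with the most closed regions was chr23:36300001-36400000, with 7 of 14, followed by chr6:42700001-42800000 (6 of 10) and chr7:54300001-54400000 (6 of 12).

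The 5 opened regions of the chromosome 3 window had a peak in neither 80% epiboly DMSO list and in none of the 4 lists of 24 hpf. All 5 had a peak in 80% epiboly atRA replicate 1, at ranks from 3989 to 200617, and 2 of them also in replicate 2. The 7 closed regions of the chromosome 23 window ranked from 14440 to 43724 at 80% epiboly in DMSO, and 5 of them had no peak in 12 somites replicate 1. In 80% epiboly atRA replicate 1 the 7 ranked from 17793 to 142408. In replicate 2 they ranked from 12043 to 97442, with no peak for chr23:36315232-36315543. At 24 hpf in DMSO, chr23:36322175-36322566 had no peak. The best rank of the others there was 23479 in replicate 1 and 36265 in replicate 2.

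The best-ranked regions of each direction show how single sites behaved. The opened region with the best worse rank, chr22:34685773-34686309, had ranks of 1196 and 1189 in 12 somites replicates 1 and 2, with summit pileups of 42 and 61. In 80% epiboly DMSO its peaks ranked 124398 and 223798 (pileups of 26 and 19). In 80% epiboly atRA, however, they ranked 6486 and 2580. This site was therefore strong at 12 somites in all 4 libraries and at 80% epiboly only in the atRA pair.

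The second opened region, chr3:60196505-60196872, lay in the chromosome 3 window above. It ranked 2515 and 662 at 12 somites in DMSO and 3546 and 3079 in atRA. It had no peak in 80% epiboly DMSO or at 24 hpf, and ranked 3989 and 31127 in 80% epiboly atRA. The fourth, chr3:60111434-60111742, in the same window, was alike, with ranks of 2808 and 1050 at 12 somites in DMSO, and 12598 and 39515 in 80% epiboly atRA.

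Of the 10 best opened regions, chr12:47650588-47650846 alone also met the rule in atRA. It ranked 2083 and 3362 at 12 somites in DMSO and 4103 and 3411 in atRA. It had no peak at 24 hpf, none in 80% epiboly DMSO, and a peak of rank 146016 in 1 of the 80% epiboly atRA libraries. The other 6 were chr7:233961-234274, chr18:32087239-32087526, chr3:6991312-6991617, chr6:56655803-56656048, chr8:43616412-43616853 and chr3:19714804-19715151. The last of these held its strength to 24 hpf, with ranks of 2295 and 2839 in DMSO and 1671 and 1580 in atRA, as did chr8:43616412-43616853, with 5005 and 4332, and 715 and 1047.

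Whether the opened regions that are absent in 80% epiboly DMSO but present in 80% epiboly atRA follow the treatment, the clutch or the library was not tested. Of the 116 opened regions with no peak in either 80% epiboly DMSO list, 35 (30.2%) had none in either 80% epiboly atRA list, and 11 (9.48%) lay in the top set of both. A peak was missing from both of these atRA lists for 4.17% of the opened regions and 1.56% of all regions. In all, 109 of 2711 opened regions (4.02%) lay in the top set of both 80% epiboly atRA libraries, against 44.1% of all regions.

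The 10 best closed regions were of a more even kind at 80% epiboly, though their ranks at 12 somites in atRA varied widely. The first, chr23:27043025-27043654, ranked 558 and 300 in 80% epiboly DMSO (pileups of 108 and 113) and 3672 and 3506 in atRA. At 12 somites it had no peak in DMSO replicate 1 and ranked 233533 in replicate 2, and in atRA it ranked 43289 and 105400. All 10 were in the best 50000 peaks of both 80% epiboly atRA libraries. Among all closed regions this held for 1282 of 4456 (28.8%), against 44.1% of all regions, so the 10 do not stand for the rest.

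The region chr5:65292282-65292873 ranked 2179 and 1674 at 80% epiboly in DMSO and 3571 and 4264 in atRA. It had no peak in any of the 8 lists of 12 somites and 24 hpf. Along with chr12:3379886-3380269 and chr16:55159585-55159995, it was closed by the rule in both arms. The chromosome 12 region had no peak in the 4 lists of 12 somites and ranked 47872 and 48303 at 24 hpf in DMSO. The others were chr16:38365500-38366058, chr22:15386791-15387264, chr18:15374129-15374555, chr6:25009305-25009692, chr13:26768622-26769001 and chr13:4921465-4921984.

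**Figure D5:**
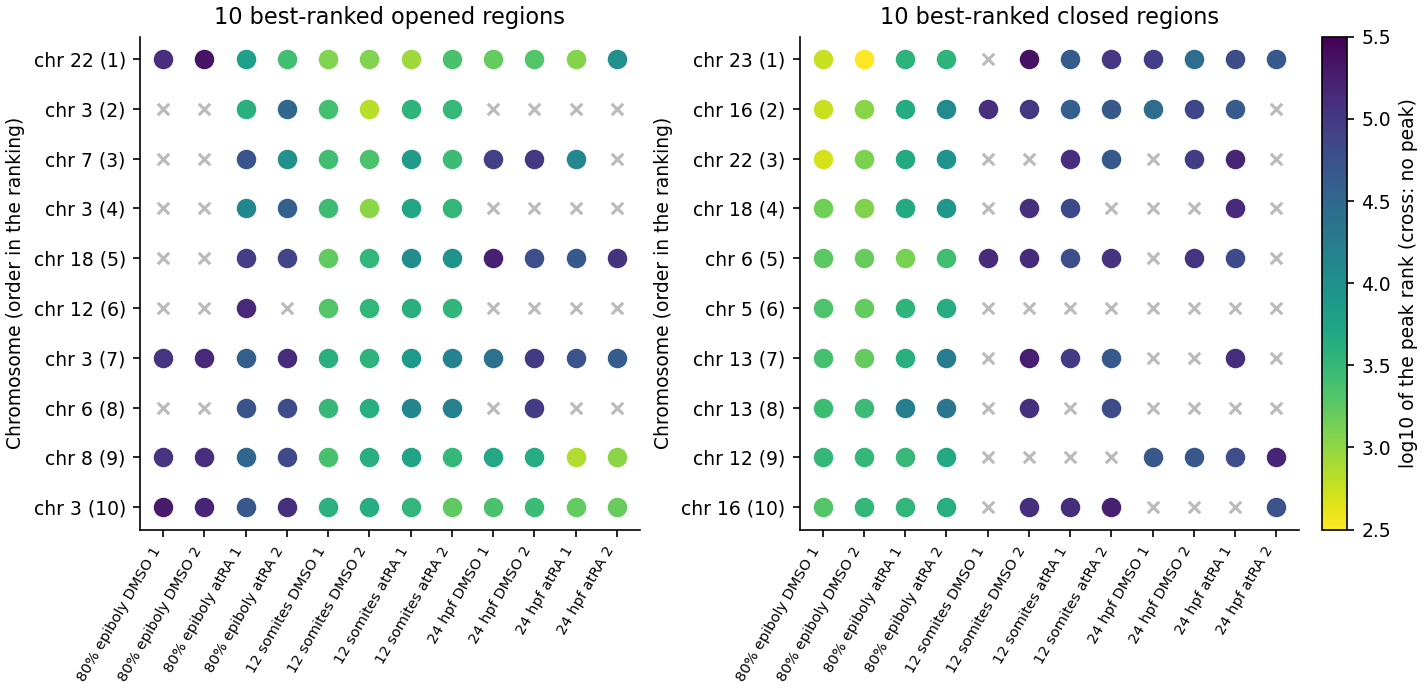
Rank on a log10 scale (colour; yellow is a better rank) of the peak in each of the 12 libraries (columns) for the 10 opened and 10 closed regions with the best worse rank (rows, named by chromosome and order); a cross marks no peak. Several opened regions lack a peak in 80% epiboly DMSO but have one in 80% epiboly atRA, while the closed regions are strong in all 4 libraries of 80% epiboly.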

How the data were processed

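Peak lists of 12 ATAC-seq libraries were used, 1 list per library. The authors used Bowtie2, SAMtools and MACS2 with the GRCz10 (danRer10) build, per the submitters' processing notes, which give neither roles nor versions. A read shift for the transposase is not given in the sources used here. Each deposited list holds, per peak, a fold enrichment at the summit, its −log10 p-value and −log10 q-value, and a score that is the whole part of 10 times the −log10 q-value, as tested on the deposited values. No read counts were used. The peak names in the deposited files refer to nucleosome-free fragments.

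Only chromosomes 1 to 25 were kept. Lists were ranked by −log10 p-value, fold and position, and intervals sharing at least 1 bp were merged. The pileup at the summit and the local background were solved from fold and p-value, with the pileup taken as a whole number. These values gave back the deposited −log10 p-value within 0.001 for 100% of peaks. The most frequent background served as the depth measure. Shares of regions are exact counts, and no reads behind them could be resampled, so precision is given by the spread between libraries. Tests were exact permutations over libraries (Python 3.11.15, numpy 2.4.6, pandas 2.3.3, scipy 1.17.1). The counting was tested on simulated data. Replicate numbers were not taken as pairs, except in the check by replicate block.

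The named regions are the 10 opened and 10 closed whose worse rank in the 2 libraries that hold them was best. Regions, rules and lists were chosen with earlier results of these data known. Gene names, promoters, motifs and sequences were not analysed here, since no genome or annotation of the lists' build was used. Alternatives covered ranking, set size, overlap, q-value, the definition of absence and each library left out.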

Additional observations from a re-analysis of the deposited data

Results flagged for a closer look

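Peaks were present in libraries that the comparison of control stages does not use. Of the 116 opened regions with no peak in either 80% epiboly DMSO list, 11 (9.48%) lay in the top set of both 80% epiboly atRA libraries. The share was 3.78% of the opened regions with such a peak and 44.1% of all regions, and the difference between the shares was not tested. They were on chromosomes 1, 3, 4, 9, 11, 14, 17 and 23, with 3 on chromosome 3 and a pair on chromosome 9 less than 1 kb apart. Of the 11, 3 were within 2 Mb of a chromosome end and 3 had no peak in any list of 24 hpf. One of these, chr17:812489-812816, ranked 32021 and 46007 in 80% epiboly atRA, and 7640 and 18456 in 12 somites DMSO. What sets the 80% epiboly DMSO libraries apart at these sites was not tested.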

How the results depend on the processing

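Counts of opened and closed regions moved with the definition. With absence judged in the best 50000 peaks they were 7830 and 10637, and with absence meaning no peak 116 and 1502. A top set of 20000 gave 1392 and 1931. All 4 libraries per stage, atRA included and chosen after seeing the data, gave 534 and 676. For closed regions alone, a top set of 100000 gave 9213, reciprocal overlap of 50% gave 9527 and all peaks with q up to 0.01 gave 148799. Leaving out 1 library gave 3519 to 8193 opened and 6133 to 8529 closed regions, since fewer libraries had to meet the rule. In the libraries not used by the rule, the difference of the 6 later libraries from 80% epiboly atRA kept its sign throughout. It missed 0.05 for opened regions at 20.3 points (no peak as absence) and 20.3 points (q up to 0.01), each with exact permutation p = 0.214, and for closed regions at -18.6 points (q up to 0.01, exact permutation p = 0.143). Leaving out each library, 8 of them added after seeing the data, gave 22.9 to 44.3 points for opened and -37.6 to -28.4 for closed regions. A replicate block cannot change the width difference of -108 bp or the 16.9 points of sharing. With it the exact permutation p was 0.5 for each, the smallest possible with such blocks. Reads per library were not used, and a shallower list holds fewer weak peaks. Planned promoter, gene list and motif results were not run.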

Other observations

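Some regions that closed by 12 somites were again among the best peaks at 24 hpf. In 24 hpf DMSO, 233 of 4456 closed regions (5.23%) lay in the top set of both libraries, against 42.5% of all regions. One of them, chr5:7478776-7479086, was closed in both arms and was picked after its values were seen. It ranked 4530 and 7169 at 80% epiboly in DMSO, had no peak in 12 somites DMSO replicate 1 and ranked 172370 in replicate 2. At 24 hpf it ranked 630 and 3903 in DMSO, and 6557 and 6787 in atRA. Of the opened regions, 464 (17.1%) were in the wide set of neither 24 hpf DMSO library, against 20.6% of all regions.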
